A study of Mus musculus with 88 samples.

Results

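Erythroid genes, those that developing red cells use to make haemoglobin and their membrane, were followed in RNA from whole mouse hearts. The genes were Alas2, Hba-a1, Slc4a1 and Klf1 together with every gene whose symbol begins with Hba- or Hbb-, and a probe set was used where the array annotation gave it one such symbol alone. The rule uses names alone, although it was set with earlier results of these data known. It gave 9 genes on 10 probe sets, of 8252 genes and 12488 probe sets on the array. Of the 9 genes, 7 were bright enough to be tested among 5672 genes, namely Alas2, Hba-a1, Hbb-b2, Slc4a1, Klf1, Hba-x and Hba-ps3. Hbb-bh1 and Hbb-y, with 1 and 2 probe sets, fell below the filter on mean signal and are described by their levels.

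The hearts came from 88 mice, 1 mouse per Affymetrix array. The mice called dKO were SR-BI-/- apoE-/-, lacking both the receptor for high-density lipoprotein (gene Scarb1) and apolipoprotein E, and the control mice called HET were SR-BI+/- apoE-/-, so that every group lacked apolipoprotein E. Mice were fed chow or a probucol diet, probucol being an antioxidant drug that lowers lipids, and were 21, 31 or 43 days old. There were 6, 8 and 6 dKO hearts on probucol, 10, 10 and 12 dKO hearts on chow, 3, 3 and 2 HET hearts on probucol and 9, 10 and 9 HET hearts on chow at the successive ages. The design text describes chow-fed dKO mice as free of detectable coronary disease at 21 days, with heart failure and small infarcts by 31 days, and with severe failure and large infarcts by 43 days. Chow-fed HET mice showed no signs of disease.

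Red cell precursors make haem in their mitochondria, join it to alpha and beta globin chains, and then lose their nucleus. The young red cell that enters the blood, the reticulocyte, still holds globin and Alas2 messenger RNA, which a mature red cell has lost. Mice without SR-BI and apolipoprotein E are known for anaemia with immature, cholesterol-laden red cells in the circulation. The heart is not a site of red cell production. In whole-heart RNA, fewer cells of a type and less RNA per cell cannot be told apart, and no source used here says whether hearts were rinsed of blood.

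Levels are log2 of the deposited signal after a floor at 2.08, and a level of 1 probe set is not set against that of another. Alas2, on the X chromosome, encodes the first and rate-limiting enzyme of haem synthesis in red cell precursors. Hba-a1, on chromosome 11, is an adult alpha globin gene, and its near-identical neighbour Hba-a2 may be read by the same probe set, which was not tested. Hbb-b2, on chromosome 7, is the minor adult beta globin gene. Slc4a1, on chromosome 11, encodes band 3, the anion exchanger of the red cell membrane, and Klf1, on chromosome 8, encodes the transcription factor that switches on adult beta globin. Hba-x is the embryonic zeta globin gene, Hbb-bh1 and Hbb-y are embryonic beta-like globin genes, and Hba-ps3 is an alpha globin pseudogene.

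RefSeq promoters of the GRCm38.p6 assembly, 250 bases before to 50 bases after the gene start, were at hand for 5 of the 9 genes. Those of Alas2 and Hba-a1, the haem enzyme and the alpha globin with the clearest differences below, are shown with that of Hba-x, the embryonic globin that was not called between genotypes or diets on the deposited scale. They lie on the plus strand at chrX:150547167-150547466, chr11:32283422-32283721 and chr11:32276350-32276649. Capitals mark matches to a GATA motif (spelled AGATAA or AGATAG or TGATAA or TGATAG, on either strand), to a CACC box (CCNCNCCC on either strand, N being any base) or to a TATA box (TATAAA or CATATAAG on the gene's strand). GATA factors and Klf1 bind motifs of the first and second kind in red cell precursors.
Alas2: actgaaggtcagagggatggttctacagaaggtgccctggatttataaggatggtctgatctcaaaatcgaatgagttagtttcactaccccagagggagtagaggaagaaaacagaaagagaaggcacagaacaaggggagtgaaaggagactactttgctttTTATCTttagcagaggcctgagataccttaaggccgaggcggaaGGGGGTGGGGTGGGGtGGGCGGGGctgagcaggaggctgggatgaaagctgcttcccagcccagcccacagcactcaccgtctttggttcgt
Hba-a1: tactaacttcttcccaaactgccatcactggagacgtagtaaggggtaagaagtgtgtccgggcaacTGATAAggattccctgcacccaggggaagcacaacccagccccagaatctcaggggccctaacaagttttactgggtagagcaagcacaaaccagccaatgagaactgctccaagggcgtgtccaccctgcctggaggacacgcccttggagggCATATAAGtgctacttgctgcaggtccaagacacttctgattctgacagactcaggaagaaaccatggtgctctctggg
Hba-x: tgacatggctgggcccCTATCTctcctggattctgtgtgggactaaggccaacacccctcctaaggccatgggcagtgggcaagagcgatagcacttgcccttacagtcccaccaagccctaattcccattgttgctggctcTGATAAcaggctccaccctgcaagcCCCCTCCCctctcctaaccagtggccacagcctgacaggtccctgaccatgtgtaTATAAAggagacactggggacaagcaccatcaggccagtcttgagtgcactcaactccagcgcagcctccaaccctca
The Alas2 window held 1 GATA match, on the reverse strand, and 4 CACC matches, also on the reverse strand and partly overlapping, with no TATA match. The Hba-a1 window held 1 GATA and 1 TATA match and no CACC match, while that of Hba-x held 2 GATA matches, 1 CACC match and 1 TATA match. Of 32851 RefSeq mouse promoters of the same length, 29.8% held the GATA motif, 49.5% the CACC box and 8.6% the TATA box. A match describes letters in this window and is no evidence of binding, and the embryonic and adult genes shown both carry GATA matches.

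Arrays were not equally bright, with a median signal of 27.8 to 75.4 per array. Across all 5672 tested genes, the median log2 difference of chow-fed dKO from chow-fed HET hearts came to -0.10, 0.18 and 0.26 at 21, 31 and 43 days, and that of probucol from chow in dKO hearts to 0.05, -0.25 and -0.31. Member differences are therefore also given after each array was centred on its median. The targeted gene, Scarb1, differed by -1.58, -0.75 and -0.69 between dKO and HET hearts on chow (limma, all called), a limited check of the labels because no source used here places its probe set relative to the deletion. All 8 listed heart muscle genes were tested, and their mean log2 level at 43 days differed between groups. It lay between 11.73 and 12.12 in dKO chow hearts and between 12.40 and 12.50 in dKO probucol hearts. In HET hearts it lay between 12.14 and 12.44 on chow and between 12.33 and 12.41 on probucol. The mean log2 ratio of the 3' to the 5' actin control, a measure of RNA integrity, was 0.0917, -0.165 and 0.0655 at 21 days in dKO probucol, dKO chow and HET chow hearts. It was 0.0354, 0.386 and 0.239 at 31 days, and -0.116, 0.172 and 0.109 at 43 days. One label of dKO chow replicate 2 at 21 days states a different age from the title and age field, and the title was used.

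Alas2 was the member with the widest range of group means, 6.79 to 10.73. In dKO hearts on chow, arrays at 21 days had a lowest, median and highest log2 level of 8.25, 9.17 and 9.88, against 7.09, 7.79 and 8.69 in HET hearts on chow. At 31 days the lowest, median and highest were 9.56, 10.59 and 10.85 in dKO hearts and 6.95, 7.71 and 7.97 in HET hearts. At 43 days they were 10.19, 10.74 and 11.17 in dKO hearts and 6.20, 6.85 and 7.26 in HET hearts. The genotypes overlapped at 21 days, and from 31 days on every dKO heart lay above every HET heart. Alas2 was higher in dKO hearts by 1.23 ± 0.20 (SE, limma adjusted p = 6.91e-06) at 21 days, which is 2.35-fold. At 31 days the difference was 2.94 ± 0.19, or 7.68-fold (limma adjusted p = 3.29e-23). At 43 days it was 3.94 ± 0.19, or 15.4-fold (limma adjusted p = 1.6e-32). After median centring it was 1.45, 2.62 and 3.59. With the actin ratio as a covariate the Alas2 difference at 43 days was 3.95.

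Hba-a1 gave smaller differences in the same direction. Its lowest, median and highest levels at 21 days were 13.01, 13.20 and 13.45 in dKO hearts and 12.18, 12.70 and 13.05 in HET hearts. At 31 days they were 13.08, 13.31 and 13.55 in dKO hearts and 12.09, 12.55 and 12.81 in HET hearts, and at 43 days 13.19, 13.50 and 13.96 in dKO hearts and 11.76, 11.93 and 12.12 in HET hearts. Only the hearts of 21 days overlapped between genotypes. The difference was 0.58 ± 0.10 (adjusted p = 5.17e-05), 0.79 ± 0.10 (adjusted p = 4.59e-10) and 1.54 ± 0.10 (adjusted p = 3.69e-25) at the 3 ages by limma, or 1.49-fold, 1.73-fold and 2.9-fold. After median centring it was 0.80, 0.47 and 1.19, so which of the first 2 ages had the larger difference depended on the scaling.

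Hbb-b2, the beta chain partner, lay between Alas2 and Hba-a1 in the size of its differences. At 21 days its lowest, median and highest levels were 11.60, 12.17 and 12.47 in dKO hearts and 10.38, 11.25 and 12.18 in HET hearts. At 31 days dKO hearts had 12.11, 12.48 and 12.91, against 10.65, 11.30 and 11.65 in HET hearts. At 43 days dKO hearts had 11.72, 12.54 and 12.94, against 9.57, 10.55 and 11.10 in HET hearts. As with Alas2, the arrays of the genotypes were apart at 31 and 43 days and mixed at 21 days. The limma differences were 0.87 ± 0.17 (adjusted p = 0.000618), 1.29 ± 0.17 (adjusted p = 2.02e-09) and 2.02 ± 0.16 (adjusted p = 7.94e-19), that is 1.82-fold, 2.45-fold and 4.04-fold, and 1.08, 0.97 and 1.67 after median centring.

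Slc4a1 followed at 31 and 43 days. Its lowest, median and highest levels at 21 days were 6.07, 6.55 and 7.10 in dKO hearts and 4.83, 5.75 and 6.38 in HET hearts. At 31 days dKO hearts had 6.92, 7.61 and 8.34, against 4.76, 5.73 and 6.23 in HET hearts, and at 43 days 7.23, 7.69 and 8.03, against 2.33, 5.73 and 6.80. No HET heart reached the lowest dKO heart at 31 or 43 days. The difference of 0.90 ± 0.28 at 21 days missed the threshold in limma (adjusted p = 0.0646) and passed it after median centring (1.11, adjusted p = 0.0022). Band 3 RNA was higher by 1.99 ± 0.27 and 2.23 ± 0.27 at the later ages, 3.96-fold and 4.69-fold (limma adjusted p = 1.07e-08 and 1.78e-11). The single HET heart at 2.33 was 1 of 9 at 43 days, and without it the difference was 1.84.

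**Figure D1:**
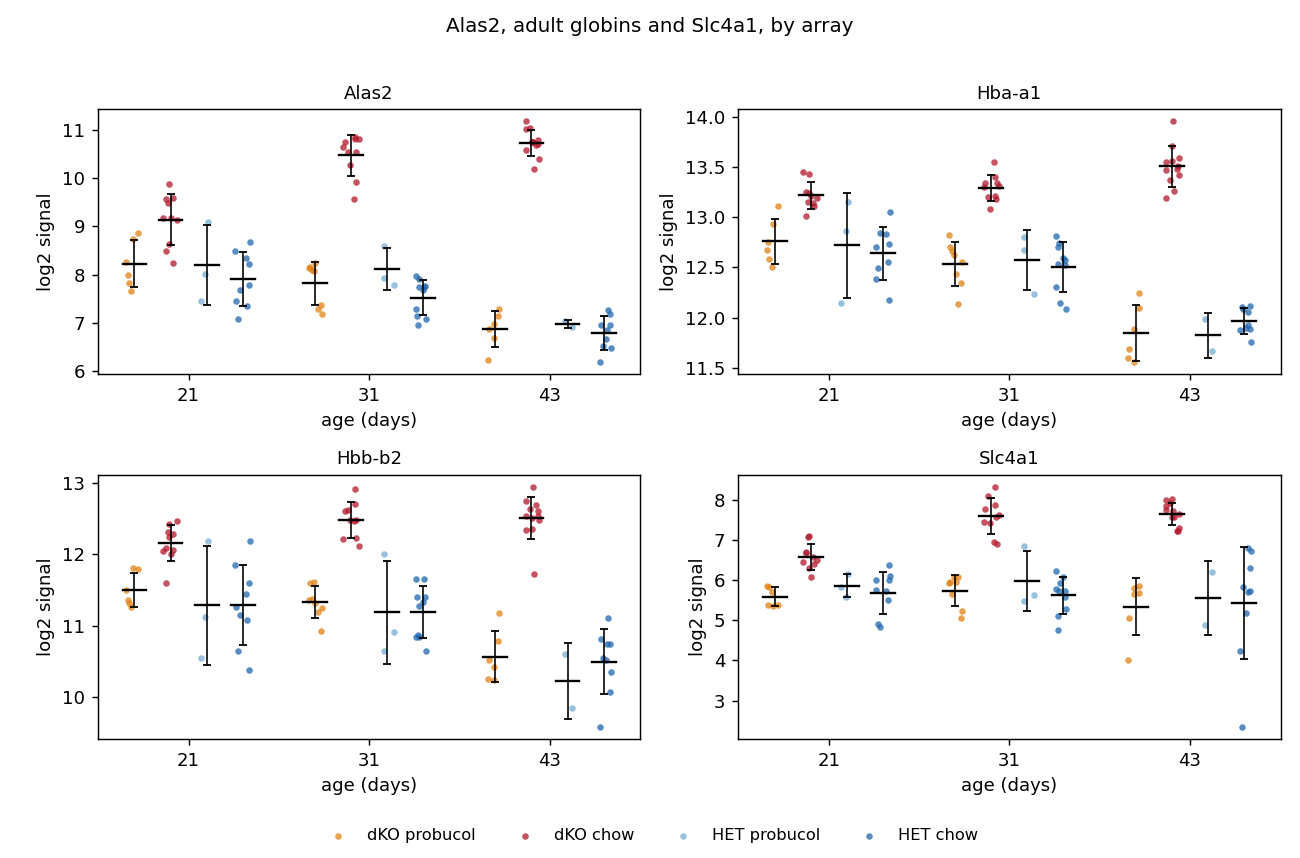
Log2 signal of Alas2, Hba-a1, Hbb-b2 and Slc4a1 on the y axis for each of 88 hearts, by age in days and, within each age, dKO probucol, dKO chow, HET probucol and HET chow from left to right. Points are arrays, black bars group means and error bars SD. At 43 days dKO chow hearts of Alas2 lay between 10.19 and 11.17, above all other hearts of that age.

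Hba-ps3, the alpha globin pseudogene, was higher in dKO hearts at 31 and 43 days, and the remaining tested members were not called between genotypes. Its lowest, median and highest levels at 43 days were 8.69, 9.09 and 9.59 in dKO hearts and 6.71, 7.81 and 9.25 in HET hearts, whose highest array reached into the dKO range. It differed by 0.23 ± 0.17 at 21 days, which was not called, and by 0.61 ± 0.17 and 1.11 ± 0.16 at the later ages (limma adjusted p = 0.00356 and 1.41e-08). After median centring the 31-day difference was 0.29 and missed the threshold (adjusted p = 0.0824). Whether its probe set also reads RNA of the functional alpha globins was not tested.

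Klf1 was dim, at percentile 48.9 of mean signal among probe sets, and spread widely within groups. Its lowest, median and highest levels at 43 days were 3.74, 5.05 and 6.43 in dKO hearts and 2.11, 5.55 and 6.77 in HET hearts, and 1 of 88 arrays, a dKO chow heart of 21 days, was at the floor. The genotype difference was -1.11 ± 0.54 (limma adjusted p = 0.3), 0.31 ± 0.52 (adjusted p = 0.71) and -0.05 ± 0.52 (adjusted p = 0.95) at the 3 ages. The 95% interval at 43 days ran from -1.07 to 0.98, so a change of a smaller size in either direction was not detectable with these arrays.

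The embryonic globins stayed dim. Hba-x at 43 days had 4.26, 5.45 and 5.94 in dKO hearts and 4.73, 5.44 and 6.81 in HET hearts, as lowest, median and highest level, and the groups overlapped widely. Its differences of -0.35, 0.35 and -0.28 were not called by limma (adjusted p = 0.456, 0.253 and 0.298), but after median centring it was lower in dKO hearts at 43 days (-0.63, adjusted p = 0.00487). Group means of Hbb-bh1 lay between 3.98 in dKO chow hearts of 21 days and 5.10 in dKO chow hearts of 43 days. Those of Hbb-y lay between 3.65 and 5.29 on one probe set and between 2.81 and 4.82 on the other. A fit with no filter on signal (8251 genes) read Hbb-y by its brighter probe set alone, with means of 3.65 to 5.29. Neither gene was called between genotypes on chow, or between diets in dKO hearts, at any age. Genotype differences were -0.49, 0.38 and 0.27 for Hbb-bh1 and -0.30, -0.12 and -0.26 for Hbb-y. The dimmer Hbb-y probe set was not fitted. Its means at 43 days were 4.82 in dKO chow, 3.56 in dKO probucol and 3.52 in HET chow hearts, with arrays at 3.86 to 5.78, 2.99 to 3.93 and 2.08 to 4.63. Arrays at the floor numbered 1 and 2 of 88 for the probe sets of Hbb-y and 0 for Hbb-bh1 and Hba-x, so these genes were dim but not at the floor.

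**Figure D2:**
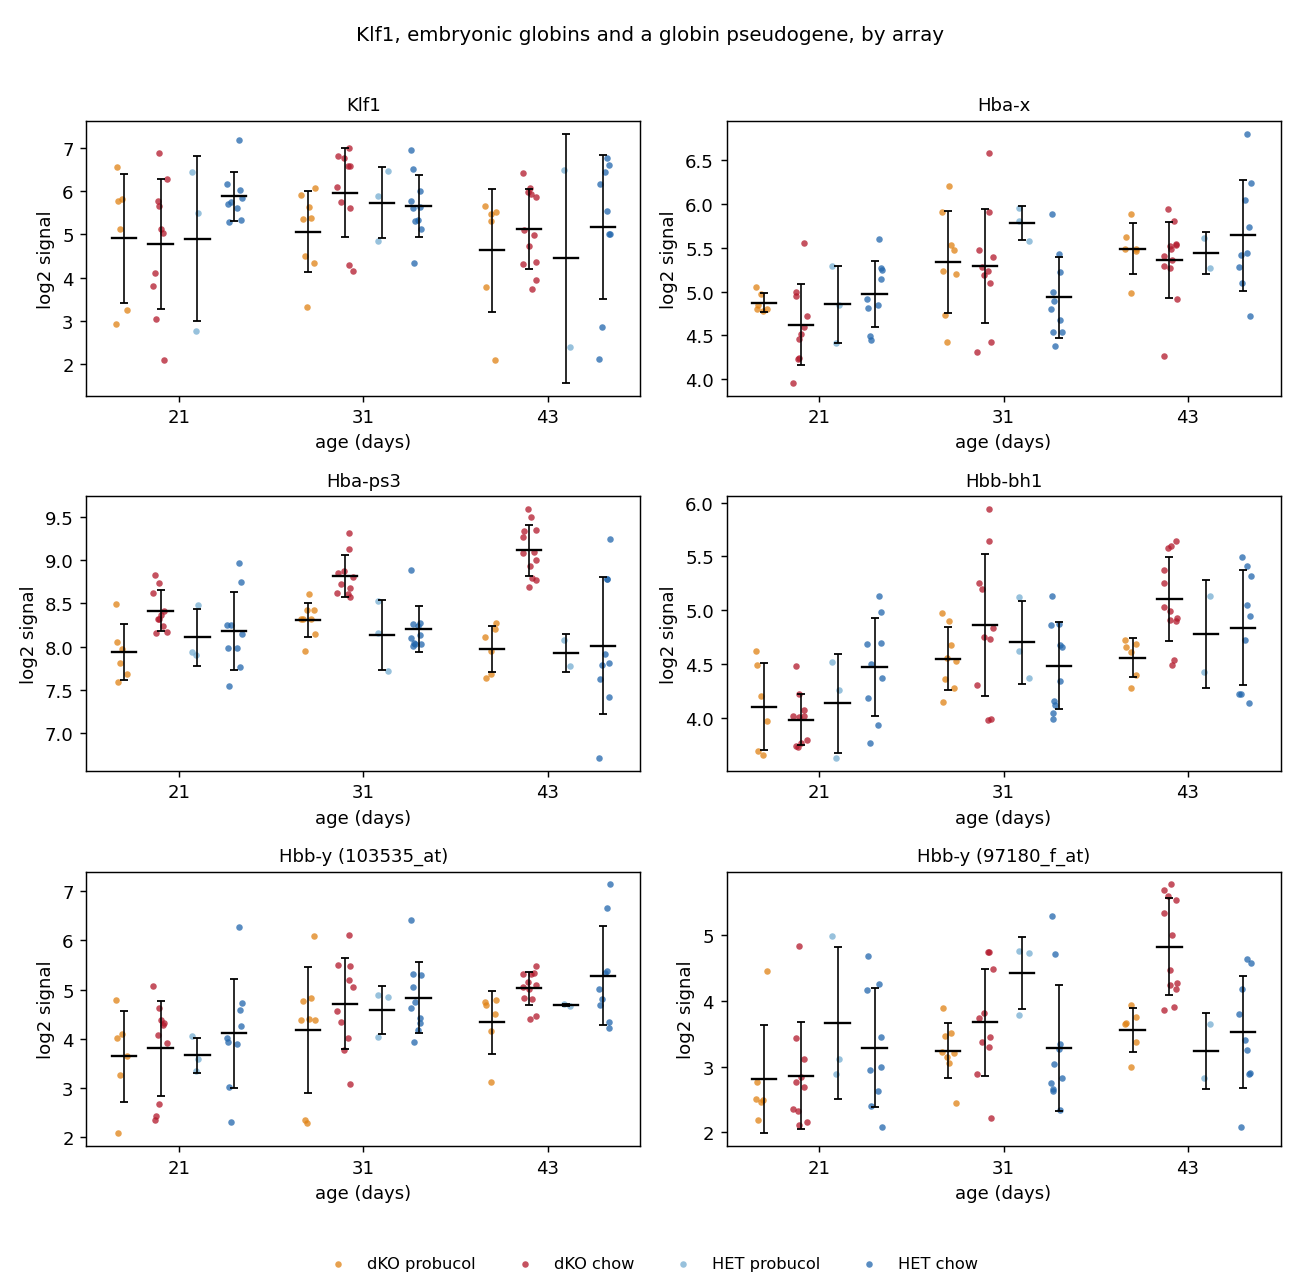
Log2 signal of Klf1, Hba-x, Hba-ps3, Hbb-bh1 and both Hbb-y probe sets on the y axis for each of 88 hearts, by age in days and, within each age, dKO probucol, dKO chow, HET probucol and HET chow from left to right. Points are arrays, black bars group means and error bars SD. Klf1 ranged from 3.74 to 6.43 in dKO chow hearts and from 2.11 to 6.77 in HET chow hearts at 43 days.

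Counted together, 3 of the 7 tested members were higher in dKO hearts on chow at 21 days, where 0.670% of all tested genes were. At 31 days it was 5 of 7, against 20.0% of all genes, and at 43 days 5 of 7, against 37.0%. No member was lower at any of the 3 ages, where 1.41%, 3.88% and 11.6% of all genes were. The median difference over the 7 was 0.58, 0.79 and 1.54, beside the all-gene medians above. Arrays of the genotypes did not overlap for 0 of 7 members at 21 days, 4 at 31 days and 4 at 43 days, while 0.106%, 2.03% and 6.98% of all tested genes were higher with no overlap. Macrophage markers, 6 genes, were also higher in dKO hearts, with 3, 6 and 6 called at the 3 ages beside the same all-gene shares. Their mean log2 level at 43 days lay between 9.44 and 10.47 in dKO hearts and between 6.49 and 7.91 in HET hearts. Their part in the member differences was not tested.

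Probucol was compared with chow in dKO hearts to see how far the erythroid levels differed with the drug. For Alas2, the lowest, median and highest levels in probucol-fed dKO hearts were 7.67, 8.13 and 8.86 at 21 days, 7.20, 8.09 and 8.23 at 31 days and 6.25, 6.93 and 7.29 at 43 days, against the chow values given above. Every probucol heart lay below every chow heart at 31 and 43 days. By limma, Alas2 differed by -0.91 ± 0.22, -2.65 ± 0.20 and -3.86 ± 0.21 at the 3 ages (adjusted p = 0.0451, 6.72e-19 and 6.99e-28). Chow hearts were thus 1.88-fold, 6.26-fold and 14.5-fold above probucol hearts. Without dKO chow replicate 2 at 21 days, the heart with conflicting ages in its labels, the 21-day difference of Alas2 was -0.87 and was not called (adjusted p = 0.0904).

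Both adult globins were lower with probucol from 31 days on. Hba-a1 had a lowest, median and highest level of 12.51, 12.71 and 13.12 at 21 days, 12.13, 12.59 and 12.83 at 31 days and 11.56, 11.79 and 12.24 at 43 days in probucol-fed dKO hearts. Hbb-b2 had 11.26, 11.43 and 11.80, then 10.92, 11.34 and 11.61, then 10.23, 10.47 and 11.17 in the same hearts. For both genes the probucol hearts were entirely below the chow hearts at 31 and 43 days. Hba-a1 differed by -0.46 ± 0.11 (limma adjusted p = 0.0508), -0.76 ± 0.10 (adjusted p = 8.77e-09) and -1.66 ± 0.11 (adjusted p = 1.59e-23) at the 3 ages. Hbb-b2 differed by -0.65 ± 0.19 (limma adjusted p = 0.166), -1.15 ± 0.18 (adjusted p = 1.9e-07) and -1.95 ± 0.19 (adjusted p = 2.78e-15).

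Slc4a1 and Hba-ps3 were lower with probucol at 31 and 43 days too. Slc4a1 had a lowest, median and highest level of 5.37, 5.55 and 5.87 at 21 days, 5.06, 5.95 and 6.08 at 31 days and 4.02, 5.67 and 5.86 at 43 days in probucol-fed dKO hearts, below all chow-fed dKO hearts at each age. Its difference was -0.998 ± 0.313 (limma adjusted p = 0.235), -1.86 ± 0.29 (adjusted p = 2.33e-07) and -2.31 ± 0.30 (adjusted p = 4.69e-10). Hba-ps3 had 7.64, 8.03 and 8.27 at 43 days, below the lowest chow-fed dKO heart, and differences of -0.50 ± 0.18 and -1.14 ± 0.19 at 31 and 43 days (limma adjusted p = 0.0222 and 2.25e-07). The 31-day difference of Hba-ps3 missed the threshold after median centring (-0.26, adjusted p = 0.207) and after quantile normalization (-0.21, adjusted p = 0.351). Klf1 differed by 0.13, -0.90 and -0.49 and Hba-x by 0.25, 0.05 and 0.13, none of which was called (limma adjusted p between 0.227 and 0.984).

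**Figure D3:**
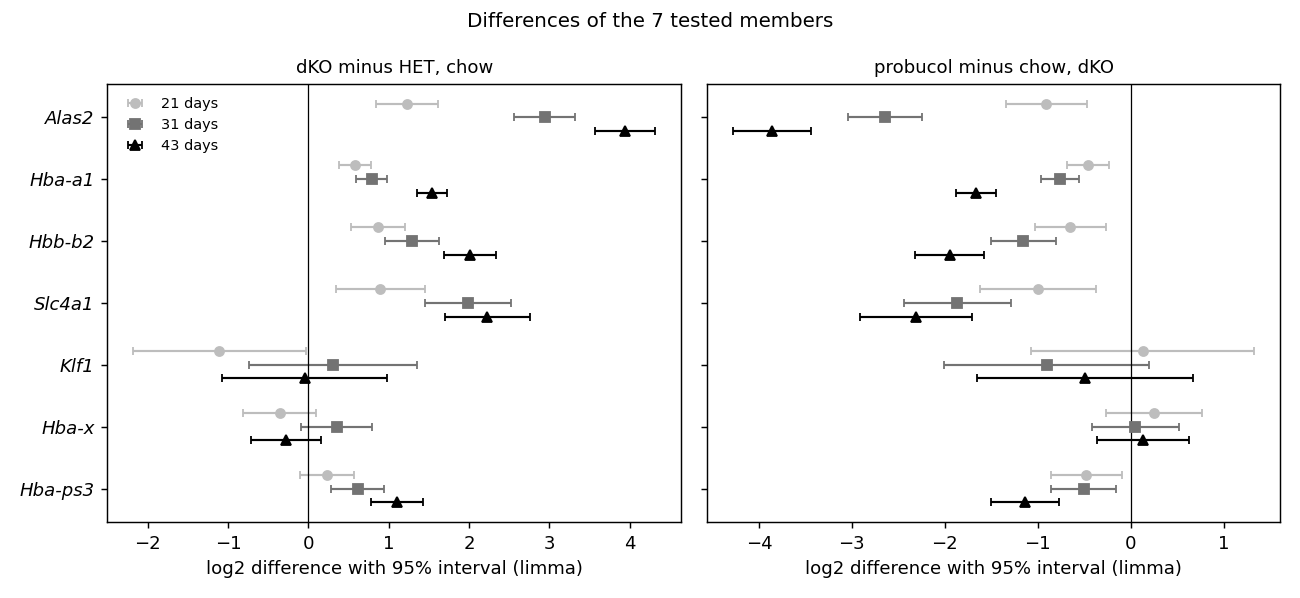
Log2 difference (x axis, points with 95% intervals from limma) of the 7 tested members (rows) at 21, 31 and 43 days. The left panel gives dKO minus HET on chow and the right panel probucol minus chow in dKO, both using the dKO chow hearts. Alas2 stands farthest from 0 at 43 days, at 3.94 on the left and -3.86 on the right.

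By count, 1 of 7 members was lower with probucol in dKO hearts at 21 days, where 0.176% of all tested genes were lower, and that count ran from 0 to 4 over 26 other settings. It was 5 of 7 at 31 days, against 26.8%, and 5 of 7 at 43 days, against 37.4%. No member was higher at any age, where 0%, 2.13% and 8.22% of all genes were, and the median difference of the 7 was -0.48, -0.90 and -1.66. The arrays did not overlap for 1, 4 and 5 of 7 members, against 0.106%, 4.09% and 12.5% of all genes lower with no overlap. After median centring the differences at 43 days were -3.47 for Alas2, -1.27 for Hba-a1, -1.56 for Hbb-b2 and -1.93 for Slc4a1. Macrophage markers were lower as well, 0, 5 and 6 of 6 at the 3 ages, and at 43 days their mean log2 level lay between 7.30 and 7.74 in probucol-fed dKO hearts, against 9.44 to 10.47 on chow. This comparison and the genotype comparison share the dKO chow hearts, so their opposite signs are not independent.

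A comparison without those hearts set dKO on probucol against HET on chow, and no member was called at any age (limma, 0 of 7). At an unadjusted p under 0.05 it was also 0 of 7 at each age, and 0 of 7 were called under all 26 other settings. Of all genes, 0.0705%, 0.882% and 0.264% were higher and 0.0353%, 5.32% and 0.829% lower at the 3 ages. Alas2 differed by 0.32 (95% interval -0.12 to 0.77), 0.30 (-0.11 to 0.70) and 0.08 (-0.36 to 0.53). At 43 days Hba-a1 differed by -0.12 (95% interval -0.35 to 0.11), Hbb-b2 by 0.07 and Slc4a1 by -0.08. A probe set shared by Hba-a2 and Hba-a1, which was no member, leaned lower in dKO hearts on probucol. It differed by -0.34 (95% interval -0.62 to -0.05) at 31 days and -0.52 (-0.84 to -0.20) at 43 days. Neither was called (limma adjusted p = 0.149 and 0.0901). The intervals of Alas2 and Hba-a1 at 43 days leave out differences of the size seen between dKO and HET hearts on chow, although smaller ones lie within them.

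In HET hearts the probucol groups were small. Alas2 was at 7.47, 8.03 and 9.10 in the 3 probucol-fed HET hearts of 21 days, at 7.80, 7.94 and 8.60 in those of 31 days and at 6.91 and 7.03 in those of 43 days. Hba-a1 was at 12.14, 12.86 and 13.15, at 12.23, 12.68 and 12.81 and at 11.67 and 11.98 in the same hearts. These values mixed with those of HET hearts on chow. The highest array lay above the chow range at 21 days for both genes and at 31 days for Alas2. The lowest Hba-a1 array lay below the chow range at 21 and 43 days. With ages pooled, probucol against chow in HET hearts gave 0.35 ± 0.17 for Alas2 (limma adjusted p = 0.304) and 0.00 for Hba-a1 (95% interval -0.17 to 0.18), and no member was called (1 at an unadjusted p under 0.05), where 0.335% of all genes were higher and 2.36% lower. Between dKO and HET hearts that both ate probucol, ages pooled, no member was called either (0 at an unadjusted p under 0.05), beside 0.0353% of all genes higher and 0.0529% lower, and Alas2 differed by -0.12 (95% interval -0.48 to 0.24). Tested directly, the probucol effect was more negative in dKO than in HET hearts for 5 of 7 members, against 13.5% of all genes. The difference of effects was -2.82 ± 0.21 for Alas2 (limma adjusted p = 7.6e-19), -0.96 for Hba-a1, -1.16 for Hbb-b2, -1.95 for Slc4a1 and -0.63 for Hba-ps3.

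On the deposited scale, the order of the group means was headed by dKO chow hearts of 43, 31 and 21 days for Alas2, Hba-a1, Hbb-b2 and Slc4a1 alike. For the globins the order of these ages depended on the scaling. Over 26 other settings the difference of 31 from 21 days in dKO chow hearts ran from -0.58 to 0.13 for Hba-a1. For Hbb-b2 it ran from -0.32 to 0.43. In dKO chow hearts Alas2 averaged 9.14 ± 0.53 at 21 days (SD, n = 10), 10.47 ± 0.43 at 31 days (SD, n = 10) and 10.73 ± 0.27 at 43 days (SD, n = 12). Its lowest mean was 6.79 ± 0.35 (SD, n = 9) in HET chow hearts of 43 days. Between any group and the next in the order of Alas2 the array ranges overlapped, although overlap of ranges does not show that means are alike. Of these neighbours, dKO chow hearts of 31 and 21 days, 1.33 apart, were called different in limma. So were dKO chow and dKO probucol hearts of 21 days, 0.91 apart, but not in every setting. At 31 and at 43 days, all dKO chow hearts lay above every other heart of that age for Alas2, Hba-a1, Hbb-b2 and Slc4a1. The share of all genes set apart from the other groups together was not computed. Taken pairwise, 2.03% and 6.98% of all tested genes lay wholly above HET chow hearts at 31 and 43 days. Against dKO probucol hearts it was 4.09% and 12.5%.

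Age was then compared within each genotype on chow. Alas2 was higher at 31 than at 21 days in dKO hearts by 1.33 (limma adjusted p = 2.28e-08), and Slc4a1 by 1.02 (adjusted p = 0.00109), Klf1 by 1.19 (adjusted p = 0.0418), Hba-x by 0.67 (adjusted p = 0.00796) and Hba-ps3 by 0.40 (adjusted p = 0.0297). These 5 of 7 stand beside 62.5% of all genes, and the median gene was itself higher by 0.50. After median centring 2 members were called and they moved apart, Alas2 being higher (0.68, adjusted p = 0.00597) and Hba-a1 lower (-0.58, adjusted p = 0.00292). From 31 to 43 days no member was called by limma in dKO hearts (1 at an unadjusted p under 0.05), where 17.9% of all genes were higher and 5.45% lower, and Alas2 differed by 0.26.

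In HET hearts no member was called by limma between 21 and 31 days (0 at an unadjusted p under 0.05), beside 15.8% of all genes higher. At 43 days 2 of 7 members were lower than at 31 days, against 0.176% of all genes. These were Hba-a1 (-0.54, limma adjusted p = 0.00104) and Hbb-b2 (-0.70, adjusted p = 0.0424), while Alas2 missed the threshold (-0.74, adjusted p = 0.071) and passed it after median centring (-0.91, adjusted p = 0.00794).

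An interaction term asked whether the gap between genotypes grew with age. From 21 to 31 days it was larger by 1.71 for Alas2 (limma adjusted p = 8.44e-06) and by 1.09 for Slc4a1 (adjusted p = 0.0454), 2 of 7 members against 14.0% of all genes. From 21 to 43 days it was larger for 5 of 7 members, against 32.9% of all genes, by 2.71 for Alas2 (adjusted p = 1.06e-13), 0.96 for Hba-a1, 1.15 for Hbb-b2, 1.33 for Slc4a1 and 0.87 for Hba-ps3. After median centring 1 member, Alas2, was called in both tests, with 1.17 (adjusted p = 0.00266) and 2.15 (adjusted p = 3.74e-09).

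The haem enzyme and the alpha globin were also compared within each heart, a comparison chosen after their values had been seen and given with no test. The genotype difference of Alas2 exceeded that of Hba-a1 by 0.65, 2.15 and 2.40 on the log2 scale at 21, 31 and 43 days on chow. With probucol in dKO hearts the difference of Alas2 was more negative than that of Hba-a1 by -0.45, -1.89 and -2.20. Such a difference does not depend on a scale factor shared by a whole array, but it does depend on each probe set's own response. The Hba-a1 probe set was the brightest of all on 13 of 88 arrays, and whether its differences are compressed at the top of the scale was not tested.

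Probe sets assigned to several globin genes were no members. Those given below went the same way between genotypes on chow and with probucol in dKO hearts. One that the annotation assigns to Hba-a2 and Hba-a1 differed by 0.65, 1.06 and 1.46 between dKO and HET hearts on chow and by -0.58, -1.39 and -1.98 with probucol in dKO hearts. One assigned to Hbb-bt, Hbb-bs, Hbb-b2 and Hbb-b1 differed by 0.39, 0.61 and 1.22 and by -0.29, -0.49 and -1.31. The probucol values at 21 days, -0.58 and -0.29, were not called in limma, and a further such probe set was at the floor on 57 of 88 arrays.

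Other genes of the erythroid programme, 56 on a list by role, put the members in context. Of these, 36 were on the array and 28 were tested. Between dKO and HET hearts on chow 3, 7 and 8 of 28 were higher and 0, 0 and 6 lower at the 3 ages, and with probucol in dKO hearts 0, 0 and 3 were higher and 0, 8 and 7 lower. Of all genes, 0.670%, 20.0% and 37.0% were higher and 1.41%, 3.88% and 11.6% lower between genotypes, and 0%, 2.13% and 8.22% were higher and 0.176%, 26.8% and 37.4% lower with probucol. The list's median difference was -0.15, 0.18 and 0.06 between genotypes and 0.07, -0.09 and -0.09 with probucol, none of them farther from 0 than 0.18. After median centring the genotype counts were 4 higher and 0 lower, 4 and 6, and 6 and 12. The probucol counts were then 0 higher and 2 lower, 2 and 5, and 10 and 6, so the balance depends on the scaling in both comparisons.

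Among red cell enzymes and genes of late maturation, 3, 5 and 5 of 8 were higher in dKO hearts on chow, beside those all-gene shares. Another 1 of the 8 was lower in dKO hearts at 43 days, where 11.6% of all genes were. Bpgm, which makes the bisphosphoglycerate that loosens oxygen from haemoglobin, was higher by 0.98 ± 0.22, 2.57 ± 0.21 and 3.05 ± 0.21 (limma adjusted p = 0.00397, 1.44e-17 and 9.15e-23). Mkrn1, a ubiquitin ligase, was higher by 0.90, 2.63 and 3.01 and Car2, carbonic anhydrase 2, by 1.02, 2.35 and 2.47. All 3 were lower with probucol in dKO hearts at 31 and 43 days, with differences of -2.75 and -2.88 for Bpgm, -2.24 and -2.74 for Mkrn1 and -2.20 and -2.22 for Car2. Xpo7, a nuclear export receptor used in late erythroid maturation, was higher by 0.38 at both 31 and 43 days and lower with probucol at 31 days (-0.60). The all-gene medians were 0.18, 0.26 and -0.25 in these comparisons, so much of the smaller Xpo7 differences may be array brightness, which was not tested.

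Transcription factors and haem enzymes other than Alas2 did not follow it as a group. Of 9 factors 5 were tested, and 0, 2 and 2 were higher in dKO hearts, where 0.670%, 20.0% and 37.0% of all genes were, namely Lyl1 (0.67 and 1.23 at 31 and 43 days) and Lmo2 (0.49 and 0.73), partners in a haematopoietic and endothelial transcription complex. Both were lower with probucol in dKO hearts (Lyl1 -0.74 and -1.36, Lmo2 -0.62 and -0.86), as was Zfpm1, the GATA1 cofactor, at 31 days (-0.37, limma adjusted p = 0.0491). The all-gene median in that 31-day comparison was -0.25. Gata1, the erythroid factor named here after its values had been seen, differed by 0.23 ± 0.28 at 43 days and was not called (limma adjusted p = 0.515). Of 7 tested haem enzymes and carriers none was called at 21 and 31 days and 3 were lower in dKO hearts at 43 days, against 11.6% of all genes, Urod (-0.71), Uros (-0.66) and Alad (-0.48), all expressed in many tissues. With probucol at 43 days Urod was higher by 0.41 and Uros by 0.56.

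Membrane and receptor genes gave mixed directions. Of 4 tested membrane genes 1 was called, Rhd, a red cell blood group antigen, lower in dKO hearts at 43 days (-1.16 ± 0.42, limma adjusted p = 0.0165) and higher with probucol (1.48). Of 4 tested receptors, Kit, the stem cell factor receptor also carried by mast cells, was higher at 43 days (1.37) and lower with probucol (-0.99 and -1.19 at 31 and 43 days). Epor, the erythropoietin receptor, was lower in dKO hearts at 43 days (-0.90), and Tfrc, the transferrin receptor, was lower with probucol at 43 days (-0.74).

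**Figure D4:**
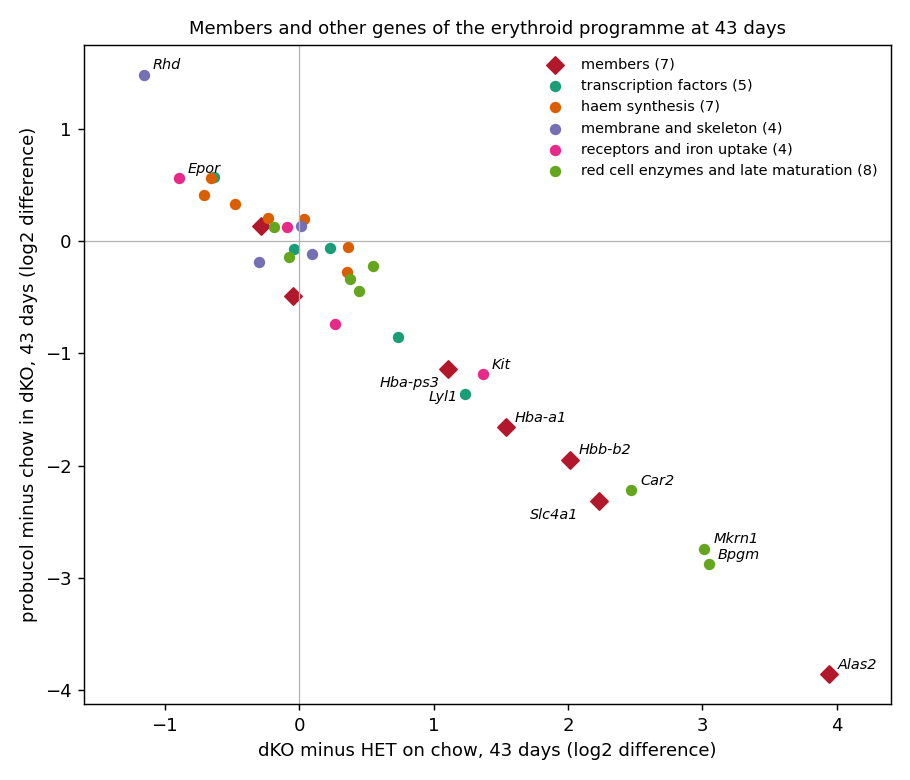
Log2 difference of dKO minus HET on chow at 43 days (x axis) against probucol minus chow in dKO at 43 days (y axis) for the 7 tested members (diamonds) and 28 other erythroid programme genes (circles, coloured by role). Both axes use the dKO chow hearts, so the downward slope is partly built in. Alas2 lies at 3.94 and -3.86, Bpgm at 3.05 and -2.88, and Rhd at -1.16 and 1.48.

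Within groups, the genes whose levels went most closely with Alas2 over 88 hearts were sought among non-members after median centring and removal of group means. Pearson's r of the residuals was 0.68 for Mkrn1, 0.67 for Bpgm, 0.58 for Tent5c, 0.52 for Sri, 0.51 for Sparcl1, 0.51 for Vegfb, 0.49 for Rnf5 and 0.49 for Rps3. Among members it was 0.71 for Hbb-b2, 0.60 for Hba-a1, 0.28 for Slc4a1, 0.20 for Hba-ps3, 0.07 for Klf1 and -0.11 for Hba-x, and Hba-a1 and Hbb-b2 went together at 0.75. These correlations describe hearts that share an array scale and are given with no test. They also include genes that differed the other way between genotypes, Vegfb being at -0.69 and Rnf5 at -0.54 at 43 days on chow. Tent5c, a poly(A) polymerase that had entered neither list, differed between dKO and HET hearts on chow by 1.12, 2.87 and 4.25 and differed with probucol in dKO hearts by -1.01, -2.98 and -4.30.

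Markers of other blood cells and of dividing cells were examined alongside. Of 5 tested neutrophil genes 0, 2 and 3 were higher in dKO hearts on chow, against 0.670%, 20.0% and 37.0% of all genes. Their mean log2 level at 43 days was 6.21 to 7.44 in dKO hearts and 3.63 to 6.11 in HET hearts. The early-granule genes Elane and Prtn3 were not called. Gp5, the single platelet gene bright enough to be tested of 8 listed, was not called either. Of 2 tested B cell genes 1 was lower in dKO hearts at 43 days, and Cd4, the 1 tested T cell gene, was higher at 31 days. Of 3 tested dividing-cell genes 0, 1 and 2 were higher in dKO hearts. With probucol in dKO hearts 0, 1 and 3 of 5 neutrophil and 0, 2 and 2 of 3 dividing-cell genes were lower, against 0.176%, 26.8% and 37.4% of all genes. Heart muscle genes were lower in dKO hearts for 0, 3 and 6 of 8 at the 3 ages, against 1.41%, 3.88% and 11.6% of all genes. With probucol in dKO hearts 0, 7 and 8 of 8 were higher, against 0%, 2.13% and 8.22%. How far blood, inflammatory cells and muscle each enter the member differences was not tested.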

How the data were processed

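Whole-heart RNA was labelled as biotinylated cRNA from total RNA and hybridised to Affymetrix arrays, 1 mouse per array, per the labels' protocols and the design text. The authors deposited linear intensities made with MAS5, per the submitters' processing notes, which give no version. How arrays were scaled to each other, and the genome build, were not given in the sources used here. Precision is limited by how many arrays there were, and correlations between pairs of arrays of 0.818 to 0.970 showed no repeated array.

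Intensities below 4.22, the 10th percentile, were set to it before log2 was taken, which understates differences of dim genes, and arrays were not rescaled. After a filter that kept the brightest 60% of probe sets, each gene was read by its brightest probe set with a single symbol, leaving 5672 genes. Using R 4.3.3, limma 3.58.1 and the data.table package, version 1.17.8, means of 12 groups were estimated from 88 arrays with an intensity trend, so that small groups share the spread. Benjamini-Hochberg adjustment was made over all genes within each of 18 contrasts, at 0.05. Groups came from the genotype, diet and age in the labels, and p-values measure the spread between mice. On simulated data for the 31-day genotype contrast (5672 genes, 200 changed), 78% of changes of 1 on the log2 scale and 97% of changes of 1.5 were recovered, and 5.91% of calls were false. The simulated noise was independent between genes, and the simulated arrays did not differ in brightness as the real arrays did. These rates therefore check the fit and do not give the share of false calls in the real data. Summaries used Python 3.11.15 with pandas 2.3.3, and figures matplotlib 3.10.9.

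All members were named. Programme genes were named if called between genotypes on chow or between diets in dKO hearts, at most 4 per role by smallest p, with the 8 non-members most like Alas2 by residual correlation and Scarb1. The members and lists were chosen with earlier results of these data known. Alternatives covered normalization, floor, filter, probe set choice, replicate block, trend, covariates and single arrays left out.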

Additional observations from a re-analysis of the deposited data

Results flagged for a closer look

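Single arrays stood apart from their group in 5 of 80 group checks by Dixon's test, where chance gives about 1 in 20. Klf1 in HET chow replicate 2 at 21 days was at 7.21, with the next array at 6.17. Hba-ps3 in HET chow replicate 7 at 31 days was at 8.89, next to 8.28. Hbb-b2 in dKO chow replicate 7 at 21 days was the lowest of its group at 11.60, the next being 12.01. On the Hbb-y probe set whose group means ran from 2.81 to 4.82, dKO chow replicate 3 at 21 days was at 4.84 beside 3.43, and dKO probucol replicate 2 at 21 days at 4.46 beside 2.76.

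Effects that differed between ages or genotypes by a test of the difference itself in limma were flagged as well. The genotype difference on chow was larger at 31 than at 21 days by 1.71 for Alas2 (adjusted p = 8.44e-06) and by 1.09 for Slc4a1 (adjusted p = 0.0454). It was larger at 43 than at 21 days by 2.71 for Alas2, 1.33 for Slc4a1, 1.15 for Hbb-b2, 0.96 for Hba-a1 and 0.87 for Hba-ps3 (adjusted p = 1.06e-13, 0.00408, 6.11e-05, 2.95e-08 and 0.00207). The probucol effect, ages pooled, was more negative in dKO than in HET hearts by -2.82 for Alas2, -1.95 for Slc4a1, -1.16 for Hbb-b2, -0.96 for Hba-a1 and -0.63 for Hba-ps3 (adjusted p = 7.6e-19, 3.92e-07, 8.4e-07, 2.16e-11 and 0.00858).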

How the results depend on the processing

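Over 26 settings, of 3240 values for single members 3155 kept their side of the threshold, 43 lost and 34 gained a call, and 8 that were called in at least 1 of the 2 fits turned round. Among the 3155 were 88 values, called in neither fit, that changed sign. The Alas2 difference between dKO and HET hearts on chow at 43 days ranged from 3.59 to 3.96, and that with probucol in dKO hearts from -3.90 to -3.47. All 8 reversals of called values were in dKO chow hearts, 31 against 21 days. Hba-a1 was at -0.58 after median centring and -0.49 after centring with the actin covariate. Hba-ps3 was at -0.017 after quantile normalization, -0.25 after centring, -0.034 after centring plus an array set block and -0.17 after centring with the actin covariate, and Hba-x at -0.0026 after quantile normalization and -0.026 after centring with the actin covariate. Centring takes out the 0.50 shift of the median gene.

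Counts of called members moved by over 1.5 times as follows. Between genotypes on chow at 21 days, 3 became 5 after centring. With probucol in dKO hearts at 21 days, 1 became 4 after centring, 3 with the actin covariate after centring, 2 after quantile normalization, with no floor, with a higher floor, with a stricter filter, or after centring plus an array set block, and 0 with no filter, every probe set on its own, no trend, the actin covariate, the array set as a block, or without dKO chow replicate 2. Leaving out single HET probucol hearts gave 1 to 2, the count of 2 coming without replicate 2 or 3 at 21 days or replicate 1 or 3 at 31 days. In dKO chow hearts, 31 against 21 days, 5 became 1 after quantile normalization or centring plus an array set block, 2 after centring with or without the actin covariate, and 3 with a stricter filter. In HET chow hearts, 43 against 31 days, 2 became 1 with no trend or with the array set as a block. For the change of the genotype difference, 31 against 21 days, 2 became 1 after quantile normalization, centring with or without the actin covariate or the array set, a stricter filter, the actin covariate or the array set as a block, and, 43 against 21 days, 5 became 1 after centring with or without the actin covariate. The array set without centring, the actin covariate after centring, leaving out HET chow replicate 5 at 43 days and keeping shared globin probe sets were chosen after seeing the data. The cause of these moves was not tested.

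Replicate numbers are shared between groups, and same-numbered hearts correlated above 0.1 in 6 of 48 pairs. Hearts of different numbers were not compared, so this cannot settle whether the numbers pair the samples. The main fit treated them as unpaired. With the replicate number as a block, the count in HET chow hearts at 43 against 31 days was 1, and the probucol difference of Alas2 at 21 days was -0.89 and was not called by limma. The array set, read from the data, held 20 of 88 hearts in its smaller part, with 6 of 10, 0 of 10 and 0 of 12 dKO chow hearts and 2 of 9, 6 of 10 and 3 of 9 HET chow hearts at the 3 ages among them. Dim genes near the floor, and the 2 and 3 hearts in HET probucol groups, limit what could be seen.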
